A study of Homo sapiens with 10 samples.

Results

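The 10 genes described here belong to the protein-folding and stress system of the endoplasmic reticulum (ER) and were followed in MOLT-4 cells, an established human T-cell acute lymphoblastic leukaemia line, during treatment with MABL, an antibody against the surface protein CD47. They are HSPA5, HSP90B1, CANX, CALR, PDIA3, PDIA4, PDIA6, HERPUD1, MANF and XBP1. The choice was by name, and every probe set that carries one of these symbols alone in the platform annotation was taken, which gave 19 of the 22215 probe sets that are not Affymetrix controls. Of these, 15 probe sets of 8 genes were bright enough to be tested among 4276 in all, and HSP90B1 and XBP1 were not. RNA was read on Affymetrix Human Genome U133A arrays at 0 h, 0.5 h, 1 h, 3 h and 6 h, with 2 arrays per time and 10 in all. The labels give each sample, those of 0 h included, 10 ug/mL MABL and, at 50 ug/mL, a second agent written only as GAM. The control is the pair of 0 h arrays, as the series states. Cells kept untreated for the same hours were not analysed here, so the antibody, GAM and the time in culture cannot be told apart. Whether the replicates were separate cultures is not said, so the p-values speak of the spread between these arrays alone, and that spread may be technical. In a bulk culture, fewer cells of a kind and less RNA per cell cannot be told apart either.

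The ER folds proteins that enter the secretory pathway. HSPA5 (BiP) and HSP90B1 (GRP94) are its HSP70 and HSP90 chaperones, CANX and CALR hold newly made glycoproteins by their sugars, and the PDI enzymes form disulfide bonds. When unfolded proteins accumulate, the sensors ATF6, IRE1 and PERK start the unfolded protein response, in which transcription factors such as cleaved ATF6 and spliced XBP1 raise chaperone genes and genes of protein disposal such as HERPUD1. Lymphocytes and lymphoid leukaemias use these chaperones for their surface receptors.

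The text gives log2 expression, which is the square root of the deposited score of a probe set. That scale is a reading of the values and is not stated by the authors, so every size in log2 or fold depends on it. A probe set was tested when at least 2 of the 10 arrays reached log2 5, and was called when its adjusted p was under 0.05 (limma, Benjamini-Hochberg over the 4276 within a comparison). Levels are not compared between probe sets. Replicate arrays correlated at 0.991 to 0.994. The T-lymphoblast identity was read from a marker list: 12 of 17 markers passed the filter, including CD3D, LCK, CD1B, CD1E and GATA3, while CD7, CD4, CD2, LMO2 and RAG1 did not. Of 4 B-cell, 5 myeloid and 2 erythroid markers 0 passed, and of 5 fibroblast or epithelial markers 1 did (COL1A1, 5.06 to 5.49). Signals outside the cells' mRNA moved with time. The 18S ribosomal RNA probe sets exceeded their 0 h mean at the 4 later times by 1.41, 1.65, 2.17 and 2.63, and the hybridization spike-ins by 0.27, 0.25, 0.76 and 0.63. Between the 2 arrays of 0 h the SDs were 0.88 and 0.29. The spike-in differences of 0.5 h and 1 h were thus no larger than that spread. The array median over tested probe sets was lower than at 0 h, by -0.13, -0.29, -0.31 and -0.25 at these times, so a change relative to the array median lies higher by that amount. The median of the changes of the same probe sets was nearer to no change, at 0.01, -0.03, -0.15 and -0.14. Making array medians equal thus shifts values by more than the median change, and which scaling is right was not tested. The part of these signals in the changes below was not tested, but each called change of a member was also computed with equal array medians, and none of them turned sign.

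The promoters of these genes are known for the ER stress response element (ERSE), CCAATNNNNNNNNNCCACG, and its shorter form ERSE-II, ATTGGNCCACG, which are bound by NF-Y and ATF6 and in part by XBP1. Both motifs share the letters CCACG and were searched on both strands in the 250 bases before each annotated start of the RefSeq promoter table (GRCh38.p14). Of the members, 9 were matched in that table, all but PDIA3. ERSE was found in 6 of these 9 (HSPA5, HSP90B1, CANX, CALR, PDIA6 and XBP1), against 25 of all 27305 genes in the table (0.0916%), or 26 of 35116 windows (0.074%). ERSE-II was found in HERPUD1 alone among the members, against 18 genes in all (0.0659%). Of 67 matched genes of the pathway lists below, 2 had ERSE (CRELD2 and ERO1B) and 2 had ERSE-II (HYOU1 and SDF2L1). As the members are genes known for these motifs, the counts are no independent test. The matches are printed to show the letters these members have in common. In capitals are the letters fixed by the motif, read 5′ to 3′ on the strand of the match.
HSPA5, ERSE, chr9:125241391-125241409, minus strand: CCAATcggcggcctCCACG
HSP90B1, ERSE, chr12:103930216-103930234, plus strand: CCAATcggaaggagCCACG
HSP90B1, ERSE, chr12:103930321-103930339, minus strand: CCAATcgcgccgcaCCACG
CANX, ERSE, chr5:179698778-179698796, plus strand: CCAATcttcacactCCACG
CALR, ERSE, chr19:12938384-12938402, minus strand: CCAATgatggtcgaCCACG
PDIA6, ERSE, chr2:10812853-10812871, minus strand: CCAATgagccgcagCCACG
XBP1, ERSE, chr22:28800603-28800621, minus strand: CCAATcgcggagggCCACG
HERPUD1, ERSE-II, chr16:56932025-56932035, plus strand: ATTGGgCCACG

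The matches lay from 225 to 34 bases before the start. CANX has 4 annotated starts, and PDIA6, XBP1 and PDIA4 have 2 each. A match lay before 2 of the starts of CANX, 1 of PDIA6 and 1 of XBP1. In MANF, PDIA4 and the other windows these letters were not found. The whole 250 bases before the start are given for the genes whose falls differ most in time, CANX and the pair HSPA5 and HERPUD1, on the strand of the gene, with the matched letters in capitals.
CANX, chr5:179698679-179698928, plus strand: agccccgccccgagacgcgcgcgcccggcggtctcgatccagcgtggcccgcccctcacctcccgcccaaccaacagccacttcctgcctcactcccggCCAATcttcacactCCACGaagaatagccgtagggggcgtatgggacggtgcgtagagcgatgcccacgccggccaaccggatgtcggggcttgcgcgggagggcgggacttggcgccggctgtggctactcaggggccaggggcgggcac
HSPA5, chr9:125241344-125241593, minus strand: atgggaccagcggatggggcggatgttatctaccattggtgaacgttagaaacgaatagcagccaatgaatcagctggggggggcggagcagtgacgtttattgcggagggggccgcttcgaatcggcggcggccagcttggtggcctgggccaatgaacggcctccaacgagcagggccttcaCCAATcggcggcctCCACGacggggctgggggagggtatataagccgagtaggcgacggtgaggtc
HERPUD1, chr16:56931892-56932141, plus strand: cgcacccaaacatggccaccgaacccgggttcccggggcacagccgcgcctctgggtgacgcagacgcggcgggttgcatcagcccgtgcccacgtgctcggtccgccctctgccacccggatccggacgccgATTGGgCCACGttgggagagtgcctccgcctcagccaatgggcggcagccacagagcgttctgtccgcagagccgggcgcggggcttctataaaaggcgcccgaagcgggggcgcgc

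**Figure D1:**
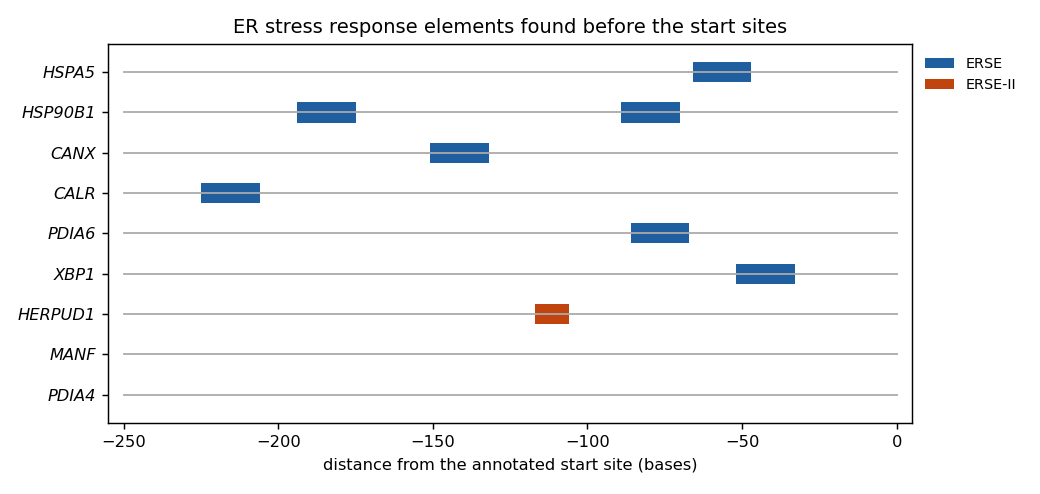
Position of ERSE (blue) and ERSE-II (orange) matches in the 250 bases before the annotated start, drawn for 1 start of each of the 9 matched genes, with the distance from the start in bases on the horizontal axis. Of the 7 genes with a match HSP90B1 has 2 ERSE matches, and the lines of MANF and PDIA4 are empty.

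HSPA5, the central ER chaperone that also holds the sensors of the unfolded protein response inactive, had the deepest fall of the group. Its only probe set read 9.42 and 9.18 on the 0 h arrays, 8.86 and 8.80 at 0.5 h, 8.31 and 8.14 at 1 h, 6.90 and 5.80 at 3 h, and 7.86 and 7.98 at 6 h. No array of a later time reached the level of either 0 h array, and both 3 h arrays lay under all others. From 9.30 ± 0.17 at 0 h (SD, n = 2) to 6.35 ± 0.78 at 3 h the level fell by 2.96 on the log2 scale (SE 0.298, limma adjusted p = 0.00184), a 7.76-fold difference. The fall was called at 1 h (-1.08, adjusted p = 0.0284) and at 6 h (-1.39, adjusted p = 0.0125) too, while at 0.5 h the difference of -0.48 was not called (adjusted p = 0.34). Most of the fall came between 1 h and 3 h (-1.88, SE 0.298, adjusted p = 0.0229), and between 3 h and 6 h HSPA5 rose by 1.57 (SE 0.298, adjusted p = 0.0207). The 3 h call was kept under all 19 alternatives run. The 1 h call was lost without any 1 of the 0 h or 1 h arrays (adjusted p = 0.0677 to 0.155), and that of 6 h without replicate 1 of 0 h or of 6 h (adjusted p = 0.0858 and 0.0678). Both were lost too on log2 of the deposited scores, the other reading of the scale (adjusted p = 0.112 and 0.053), and with no filter (adjusted p = 0.188 and 0.0996).

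HSP90B1, which folds receptors such as integrins and Toll-like receptors, was hardly read by its own probe sets. The 2 probe sets that carry its symbol alone lay between 2.28 and 3.21 on all 10 arrays, below the filter. A further 2 are annotated to HSP90B1 together with the microRNA gene MIR3652 and are given without assignment to either. The brighter of them, 200599_s_at, read 5.35 and 5.86 at 0 h, and between 4.09 and 4.94 on the 8 later arrays, all under both 0 h arrays. Its changes from 0 h were -0.98 (SE 0.241), -1.13, -1.29 and -0.96 at 0.5 h, 1 h, 3 h and 6 h. Only the 2 arrays of 0 h reached log2 5, so this probe set passed the filter through 0 h alone. A fall from 0 h was thereby favoured in advance. Each change was called lower by limma, but these calls are not used as support.

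CANX, the membrane-bound lectin chaperone calnexin, fell early and was no longer called lower at 6 h. The brightest of its 3 probe sets, 200068_s_at, read 8.03 and 8.02 at 0 h, 6.67 and 6.20 at 0.5 h, 6.16 and 6.41 at 1 h, 7.59 and 6.85 at 3 h, and 7.43 and 7.88 at 6 h. The 4 arrays of 0.5 h and 1 h lay under all other arrays. After 0.5 h its level had changed by -1.59 (SE 0.268, adjusted p = 0.0081), and after 1 h by -1.74 (adjusted p = 0.00229), a 3.34-fold fall. At 3 h the change of -0.81 was not called (adjusted p = 0.0555), and at 6 h it was -0.37 (adjusted p = 0.351). The other probe sets went the same way at 0.5 h and 1 h. 208853_s_at changed by -1.18 and -1.04 at these times (adjusted p = 0.0189 and 0.0191). 208852_s_at changed by -2.42 and -2.26 (adjusted p = 0.00411 and 0.00165), from 7.35 and 6.58 at 0 h to 4.79 and 4.30, then 4.72 and 4.69, so part of its fall lies below log2 5. That probe set was still lower at 3 h (-1.70, adjusted p = 0.00692), and at 6 h none of the 3 was called, with changes of -0.77, -0.37 and 0.13. The 0.5 h call of the brightest probe set did not survive leaving out 0 h replicate 1 (adjusted p = 0.0656) or, of the 0.5 h pair, replicate 2 (0.0649).

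CALR, the soluble lectin chaperone calreticulin, was read differently by its probe sets. The brightest, 214315_x_at, read 10.27 and 10.44 at 0 h and between 9.83 and 10.93 later. The arrays of 1 h and 3 h lay above both 0 h arrays and those of 0.5 h and 6 h overlapped them. None of its changes was called, with values of 0.27, 0.21, 0.21 and -0.23 at the 4 later times (adjusted p = 0.513 to 0.577). 212953_x_at changed by 0.37, 0.35 and 0.47 at 0.5 h, 1 h and 3 h (adjusted p = 0.17, 0.157 and 0.0649) and fell between 3 h and 6 h (-0.74, adjusted p = 0.0336). With equal array medians its changes at 1 h and 3 h were 0.64 and 0.78 and were called (adjusted p = 0.0136 and 0.00811). 200935_at, by contrast, was lower at 6 h by a change of -1.5 (SE 0.334, adjusted p = 0.014), from 8.37 and 8.56 to 7.11 and 6.81. It is the only CALR probe set without the suffix _x, by which the manufacturer marks sets with probes that may bind other transcripts. The difference between the probe sets was not tested.

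**Figure D2:**
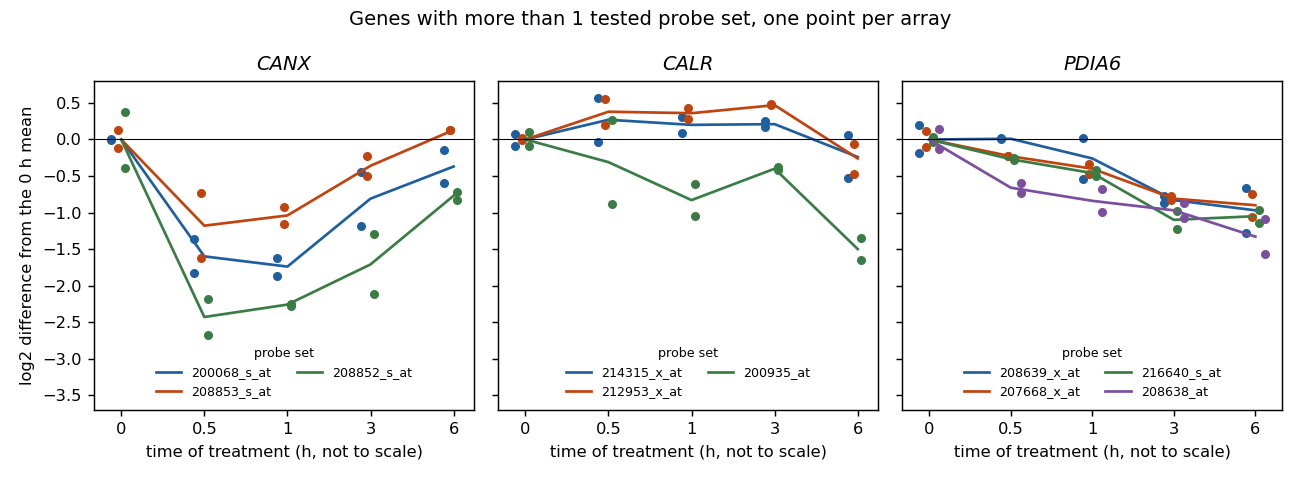
Difference of each array (points) and of each time's mean (lines) from the mean of the 0 h arrays, in log2, against time, for the tested probe sets of CANX, CALR and PDIA6. The 3 CANX sets dip at 0.5 h and 1 h, the 4 PDIA6 sets decline to 3 h and 6 h, and the CALR set 200935_at lies under the other 2.

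The brightest probe sets of the disulfide isomerases were first called lower at 1 h or 3 h. PDIA3 (ERp57), which works on glycoproteins held by CANX and CALR, read 8.57 and 8.36 at 0 h, 8.13 and 8.17 at 0.5 h, 7.71 and 7.24 at 1 h, 7.61 and 7.22 at 3 h, and 7.75 and 7.81 at 6 h. All 8 later arrays lay under both 0 h arrays. It was not called at 0.5 h (-0.31, adjusted p = 0.308) and fell at 1 h (-0.99, SE 0.182, adjusted p = 0.00517), 3 h (-1.05, adjusted p = 0.00537) and 6 h (-0.68, adjusted p = 0.0276). The calls of 1 h and 3 h were kept under all 19 alternatives. Equal array medians ended that of 6 h (-0.43, adjusted p = 0.0531), as did fits without any 1 of the 0 h or 6 h arrays (adjusted p = 0.0547 to 0.158).

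PDIA4 (ERp72), an isomerase with several thioredoxin-like domains, read 8.40 and 8.41 at 0 h, 8.65 and 8.34 at 0.5 h, 8.39 and 8.19 at 1 h, 7.97 and 7.85 at 3 h, and 7.70 and 7.56 at 6 h. The arrays of 3 h and 6 h lay under all earlier ones. By 6 h its change was -0.77 (SE 0.133, adjusted p = 0.00575), a call kept under all 19 alternatives. The change of -0.49 at 3 h was called (adjusted p = 0.0274) but not with equal array medians (-0.18, adjusted p = 0.288) and not without either 0 h array or replicate 2 of 3 h (adjusted p = 0.112, 0.0911 and 0.131). The dimmer PDIA4 probe set lay between 4.15 and 4.99 on all arrays, below the filter.

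PDIA6, an isomerase that binds HSPA5, was read by 4 tested probe sets, all called lower at 3 h and at 6 h. Their changes ran from -0.81 to -1.10 at 3 h (adjusted p = 0.00184 to 0.0383) and from -0.90 to -1.33 at 6 h (adjusted p = 0.0013 to 0.0232). 216640_s_at, whose replicates lay closest at 0 h, read 7.37 and 7.45 at 0 h, 7.15 and 7.13 at 0.5 h, 6.99 and 6.91 at 1 h, 6.43 and 6.18 at 3 h, and 6.26 and 6.45 at 6 h. Each time up to 3 h lay wholly under the one before. Between 1 h and 3 h this probe set fell by 0.64 (SE 0.119, adjusted p = 0.0328), and the other 3 changed by -0.14 to -0.56 and were not called. That call was lost without any 1 array of 0 h, 0.5 h, 1 h or 3 h (adjusted p = 0.0512 to 0.142). 208638_at alone was called at 0.5 h (-0.66, adjusted p = 0.047), and not after renewed quantile normalization (-0.53, adjusted p = 0.0609). The 1 h call of 216640_s_at (-0.46, adjusted p = 0.0222) did not hold once array medians were made equal (-0.17, adjusted p = 0.237). For the brightest, 208639_x_at, at 3 h (-0.83, adjusted p = 0.0383) equal array medians ended the call (-0.52, adjusted p = 0.0664), and so did a fit without any 1 array of 0 h, 0.5 h or 3 h (adjusted p = 0.0599 to 0.181). Its 6 h call (-0.97, adjusted p = 0.0232) was lost without either 0 h array or replicate 1 of 6 h (adjusted p = 0.0565, 0.117 and 0.135).

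HERPUD1, a membrane protein that helps assemble the machinery for degrading ER proteins and a known target of the unfolded protein response, fell in a step after 1 h. It read 7.5 and 7.30 at 0 h, 7.76 and 7.72 at 0.5 h, 7.94 and 7.70 at 1 h, 6.04 and 6.13 at 3 h, and 6.16 and 6.65 at 6 h. The 4 arrays of 0.5 h and 1 h lay above both of 0 h, and those of 3 h and 6 h below them. Between 1 h and 3 h HERPUD1 fell by 1.73 on the log2 scale (SE 0.168, adjusted p = 0.00455), a 3.32-fold difference. Against 0 h the changes of 3 h (-1.32, SE 0.168, adjusted p = 0.00243) and 6 h (-1, adjusted p = 0.00519) were kept under all 19 alternatives. The change at 1 h was 0.41 and not called (adjusted p = 0.109), but with equal array medians it was 0.70 and called (adjusted p = 0.00482), and it was called without either 6 h array (0.41, adjusted p = 0.0457).

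MANF, a small ER protein that binds HSPA5 and is secreted under ER stress, declined without a step. It read 8.54 and 8.20 at 0 h, 7.94 and 7.87 at 0.5 h, 7.99 and 7.38 at 1 h, 7.32 and 7.34 at 3 h, and 6.98 and 7.44 at 6 h. All later arrays lay under both of 0 h. The fall was called at 3 h (-1.04, SE 0.224, adjusted p = 0.0116) and 6 h (-1.16, adjusted p = 0.00838), and the changes of -0.46 at 0.5 h and -0.68 at 1 h were not (adjusted p = 0.216 and 0.0542). Between 1 h and 3 h MANF changed by -0.36 and was not called (adjusted p = 0.404). The calls were lost without 0 h replicate 1 (adjusted p = 0.0883 at 3 h and 0.0666 at 6 h), and in turn without replicate 2 of 3 h and replicate 1 of 6 h (adjusted p = 0.0557 and 0.0568).

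XBP1, whose mRNA is spliced by IRE1 into the form that codes for the active transcription factor, lay under the filter on all arrays. It read 4.14 and 4.15 at 0 h, 4.64 and 4.20 at 0.5 h, 4.31 and 4.27 at 1 h, 3.72 and 3.91 at 3 h, and 3.95 and 3.88 at 6 h. The 4 arrays of 3 h and 6 h were the lowest, but at this level no test was made, and spliced and unspliced mRNA are not given apart.

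**Figure D3:**
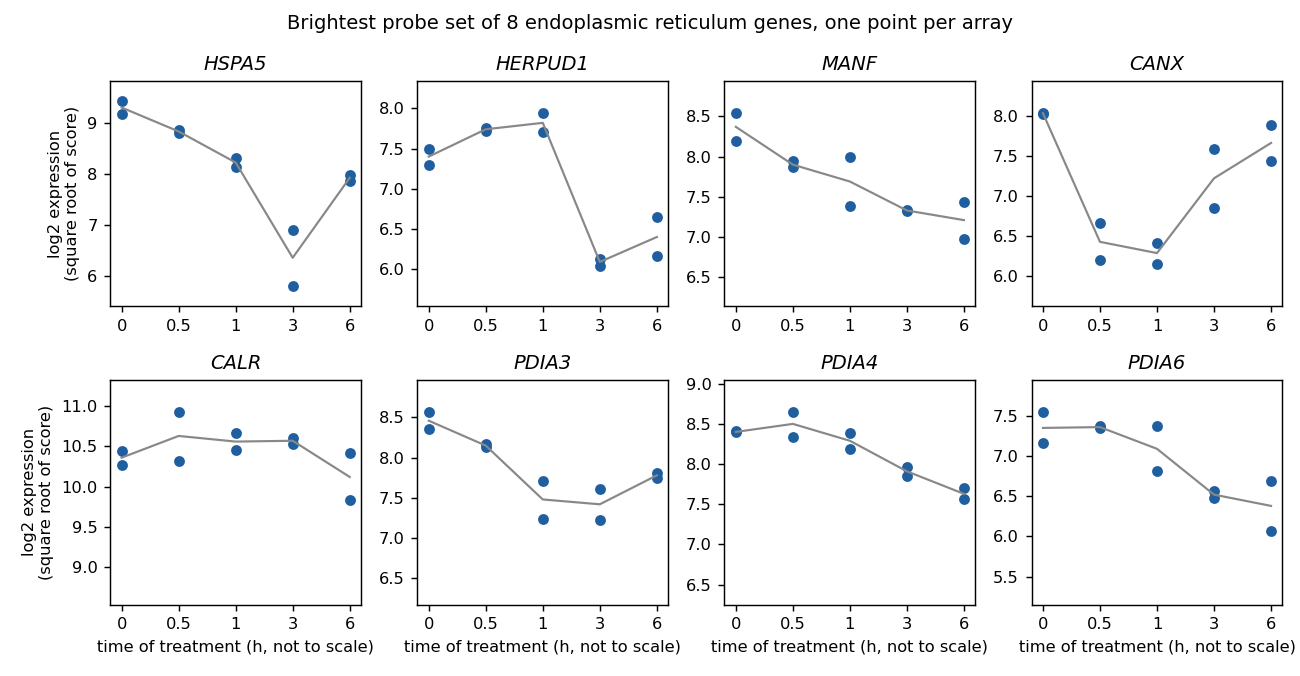
Log2 expression of the brightest probe set of 8 genes against time of treatment, with 1 point per array and a line through the means of each time. Each panel has its own axis range. HSPA5 is lowest at 3 h, HERPUD1 drops between 1 h and 3 h, CANX is lowest at 0.5 h and 1 h, and PDIA4 and PDIA6 are lowest at 6 h.

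Counted over the 15 tested probe sets, the number called lower was 4 after 0.5 h, then 7, 10 and 10 after 1 h, 3 h and 6 h. At none of these times was a member called higher by limma, and at an unadjusted p under 0.05 the counts of higher were 0, 1, 1 and 0. Over all tested probe sets 15.1%, 24.2%, 26.4% and 21.6% were called lower and 1.92%, 4.14%, 2.53% and 4.07% higher. The probe sets called at 0.5 h were those of CANX and 208638_at of PDIA6. By gene, with the brightest probe set, 1, 3, 6 and 6 of 8 were lower. Over the 2819 genes with a tested probe set 13.8%, 22.6%, 25.8% and 20.4% were, so the count of 0.5 h is near that share. Median changes of the 8 were -0.15, -0.47, -0.93 and -0.87, beside 0.03, -0.01, -0.14 and -0.13 over the 2819 genes. The members were chosen with earlier results known, so these counts describe them and are no independent test. The F test over all times called 14 of the 15, all but the brightest of CALR, with 39.6% called over all. With equal array medians the counts of lower were 4, 6, 8 and 9, and of higher 0, 2, 1 and 0. Over all probe sets that scaling called 656, 834, 760 and 603 lower and 295, 1389, 987 and 613 higher, in place of 646, 1036, 1128 and 925 lower and 82, 177, 108 and 174 higher. Without 0 h replicate 1 the members called lower were 1, 3, 5 and 5, and the probe sets of the whole array 121, 609, 403 and 349. Without 0.5 h replicate 2 the count of 0.5 h was 1 (126 over the whole array), without 1 h replicate 2 that of 1 h was 3 (604), and without 6 h replicate 1 that of 6 h was 5 (428). The submitters' own rule, applied to the square roots as log2 with both replicates beyond 2 or under 0.5 times the 0 h mean, took 2 CANX probe sets at 0.5 h and at 1 h. At 3 h it took HSPA5, HERPUD1, MANF and 208852_s_at of CANX, and at 6 h HSPA5, 200935_at of CALR and 208638_at of PDIA6. On all tested probe sets it took 5.99%, 11.4%, 6.69% and 4.09% as lower.

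The called fall of CANX lay in another interval than those of HSPA5 and HERPUD1. This split was proposed with the values known, so it is described with no test of the difference between genes. CANX changed by -1.59 in the interval from 0 h to 0.5 h, and HSPA5, MANF and HERPUD1 by -0.48, -0.46 and 0.34. From 0.5 h to 1 h 0 of the 15 probe sets were called by limma, 1 had an unadjusted p under 0.05, and of all 4276 only 2 were called (0.0468%). PDIA3 had the largest change among the brightest probe sets (-0.67, unadjusted p = 0.00606 and adjusted p = 0.218 by limma). From 1 h to 3 h HSPA5 and HERPUD1 changed by -1.88 and -1.73, while the 3 CANX probe sets changed by 0.93, 0.68 and 0.56 (adjusted p = 0.0945, 0.181 and 0.361). The rise of the brightest, 200068_s_at, was called with equal array medians (0.96, adjusted p = 0.0174) and after renewed quantile normalization (0.98, adjusted p = 0.0286). In that interval 3 of the 15 were called lower, against 1.82% over all, and 0 higher (2 at an unadjusted p under 0.05), against 1.94% over all. From 3 h to 6 h HSPA5 was the 1 member called higher (5% over all) and 212953_x_at of CALR the 1 called lower (2.08% over all). MANF, named with HSPA5 and HERPUD1 as a later fall, had no called interval. Its changes in the successive intervals were -0.46, -0.22, -0.36 and -0.12, the largest in the first, so no late step was seen for MANF. The step of HERPUD1 was called under all 19 alternatives (adjusted p up to 0.0414). That of HSPA5 was lost without either 1 h array (adjusted p = 0.119 and 0.0924), on log2 of the scores (adjusted p = 0.0502) and with no filter (adjusted p = 0.167). Its rise after 3 h was lost without either 6 h array (adjusted p = 0.0678 and 0.1) and with no filter (adjusted p = 0.173). The fall of 212953_x_at was lost without 1 array of 0 h, 1 h or 3 h or 6 h replicate 2 (adjusted p = 0.0582 to 0.153), on log2 of the scores (adjusted p = 0.062) and with no filter (adjusted p = 0.19).

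**Figure D4:**
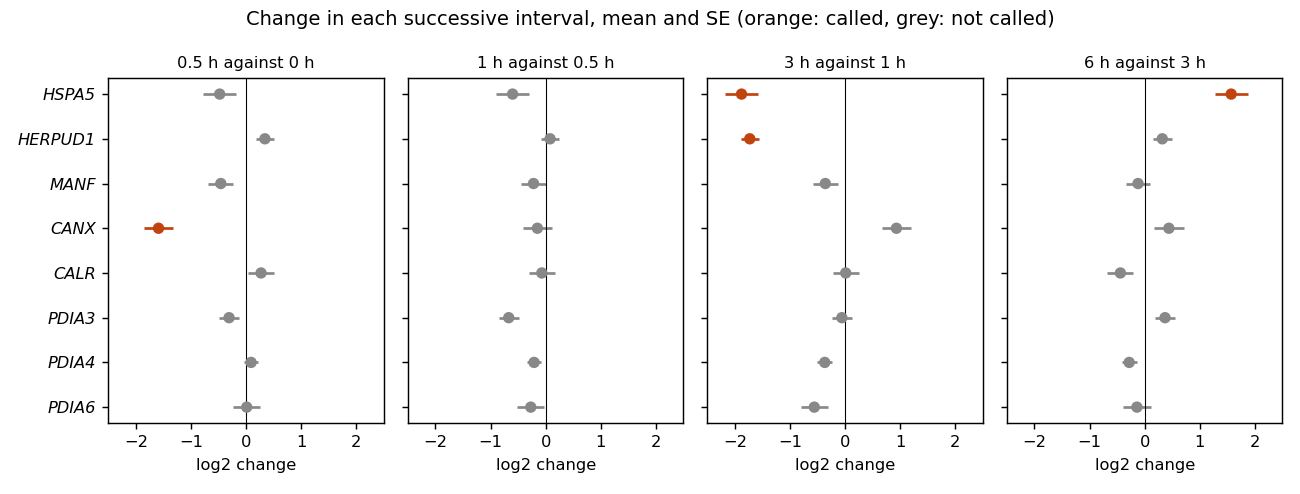
Log2 change of the brightest probe set of 8 genes in each successive interval, as the fitted change (point) with its SE (bar), in orange where called and in grey where not. The change of CANX is called in the first interval, those of HSPA5 and HERPUD1 from 1 h to 3 h, and that of HSPA5, upward, from 3 h to 6 h.

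The rest of the pathway was read from 4 lists. Over all 2819 genes tested, 13.8%, 22.6%, 25.8% and 20.4% were called lower at the 4 later times and 1.7%, 4.04%, 2.34% and 4.4% higher. With equal array medians 656, 834, 760 and 603 of all 4276 tested probe sets were lower and 295, 1389, 987 and 613 higher. The equal-median counts of the lists below are to be read beside these. Of the sensors and transducers of the unfolded protein response, 5 of 16 genes were tested, and the sensors ERN1, EIF2AK3 and ATF6 and the stress factors DDIT3, PPP1R15A and TRIB3 were not among them. EIF2S1, the translation factor subunit that PERK phosphorylates, was the only gene of this list called in a comparison with 0 h. It fell at 0.5 h (-0.69, adjusted p = 0.0246) and 1 h (-1.24, adjusted p = 0.00143), and rose between 1 h and 3 h (0.88, adjusted p = 0.0328), from 7.13 and 7.04 at 0 h to 5.84 and 5.84 at 1 h and 7.15 and 7.49 at 6 h. ATF4, the transcription factor translated when that factor is phosphorylated, read 10.59 and 10.55 at 0 h and 10.88 and 10.89 at 1 h, a change of 0.31 that was not called (adjusted p = 0.0779), while the F test over all times called it (adjusted p = 0.0487). The list medians were 0.03 at 0.5 h and 1 h, -0.06 at 3 h and 0.21 at 6 h. With equal array medians they were 0.16, 0.31, 0.25 and 0.46, with EIF2S1 still lower at 0.5 h and 1 h, 1 gene higher at 1 h and 3 higher at 6 h.

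Of 8 tested genes among 22 other folding factors, the numbers that fell at the 4 later times were 1, 2, 1 and 2, and 1 rose at 1 h. TMX1, a membrane-bound isomerase, fell at 0.5 h (-1.55, adjusted p = 0.00979), 1 h (-2.13, adjusted p = 0.00138) and 3 h (-1.16, adjusted p = 0.0184), reading 7.38 and 7.48 at 0 h, 5.64 and 4.95 at 1 h, and 6.75 and 7.07 at 6 h. HYOU1, the large HSP70-like partner of HSPA5, fell at 6 h (-0.89, adjusted p = 0.00686), most of it after 3 h (-0.68, adjusted p = 0.0431). SDF2L1, which forms a complex with ER DNAJ proteins, was lower at 6 h (-0.46, adjusted p = 0.028), and P4HB, the founding disulfide isomerase, at 1 h (-0.46, adjusted p = 0.0306). With equal array medians neither of these was called (-0.21, adjusted p = 0.196, and -0.18, adjusted p = 0.267). The gene that rose, FKBP2, an ER prolyl isomerase named after its value was seen, changed by 0.53 at 1 h (adjusted p = 0.0359). The F test over all times did not call FKBP2 (adjusted p = 0.0842). Medians were 0.07, -0.09, -0.13 and -0.18 at the 4 times, and 0.2, 0.19, 0.18 and 0.07 with equal array medians. That scaling called 1 gene lower at each time and 1, 4, 1 and 0 higher. At 1 h more of these genes were higher than lower, as were more of all tested probe sets (1389 higher and 834 lower).

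Of 9 tested genes of protein disposal among 19, 1 rose at 0.5 h and 3 fell at 6 h. DERL2, a channel component for the export of misfolded proteins, fell at 6 h (-0.67, adjusted p = 0.0127). It read 5.46 and 5.03 at 0 h and 4.66 and 4.49 at 6 h, so its 6 h values lie below log2 5. The ubiquitin-conjugating enzyme UBE2G2 (-1.18, adjusted p = 0.0158) and the ATPase VCP (-0.48, adjusted p = 0.0499) fell at 6 h too, both named after their values were seen. The F test over all times called neither UBE2G2 nor VCP (adjusted p = 0.055 and 0.0586). With equal array medians the changes of DERL2 (-0.42, adjusted p = 0.0683) and VCP (-0.23, adjusted p = 0.278) were not called. DERL1, also named after its value was seen, rose at 0.5 h (0.68, adjusted p = 0.0377), but the F test did not call it (adjusted p = 0.0868). List medians were -0.01, -0.16, -0.21 and -0.40. Equal array medians made them 0.11, 0.12, 0.1 and -0.15, with 1 gene higher at each time and 1 lower at 6 h alone.

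Of 11 tested genes of N-glycosylation and the calnexin cycle among 18, the numbers that fell at the 4 later times were 1, 2, 4 and 2. PRKCSH, a subunit of the glucosidase that prepares glycoproteins for CANX and CALR, rose at 1 h, 3 h and 6 h (0.50, 0.68 and 0.62, adjusted p = 0.0281, 0.00916 and 0.0141). It read 6.88 and 7.16 at 0 h and 7.46 to 7.84 on the 8 later arrays, with no overlap. MLEC (malectin), a lectin for freshly glucosylated chains, fell at 3 h (-0.99, adjusted p = 0.00756) and 6 h (-0.94, adjusted p = 0.00986). ALG5, an enzyme of glycan assembly, fell at 0.5 h (-0.94, adjusted p = 0.014), 1 h (-1.01) and 3 h (-0.74). RPN2, an oligosaccharyltransferase subunit, fell at 1 h (-0.68) and 3 h (-0.45). At 3 h ALG5 (-0.43, adjusted p = 0.0511) and RPN2 (-0.14, adjusted p = 0.417) were not called with equal array medians. The glucosyltransferase ALG8, named after its values were seen, was lower at 3 h and 6 h (-0.80 and -0.82, adjusted p = 0.04 and 0.0406). It was not called with equal array medians, nor by the F test over all times (adjusted p = 0.0877). List medians were 0.06, 0.02, -0.16 and -0.30. Equal array medians made them 0.19, 0.31, 0.15 and -0.05, with 1, 2, 1 and 1 genes lower and 1, 3, 3 and 2 higher.

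**Figure D5:**
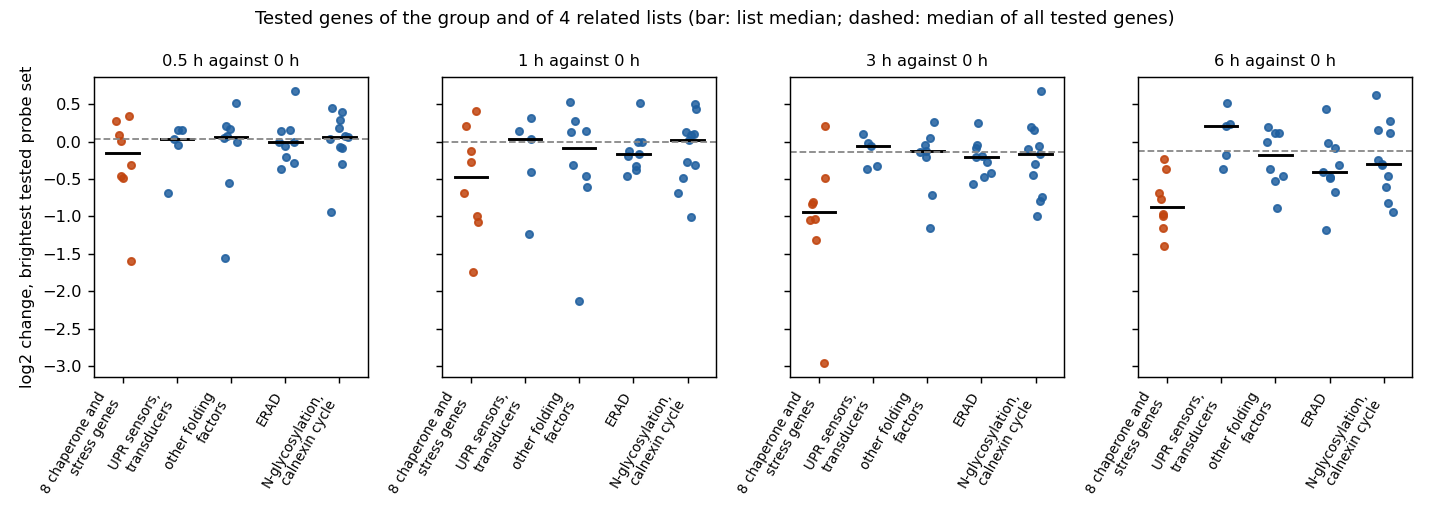
Log2 change from 0 h of the brightest tested probe set of each gene (points) at the 4 later times, for the 8 tested chaperone and stress genes and the 4 lists (UPR, unfolded protein response; ERAD, disposal of misfolded proteins), with the median of each list (bar) and of all 2819 tested genes (dashed). At 3 h the median of the 8 genes is -0.93, and those of the lists lie between -0.21 and -0.06.

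The genes whose course was most like that of HSPA5 over the 10 arrays were PPID, POLQ, PNMA2, DENND2D and SARAF, with Pearson r from 0.958 to 0.951 among 2818 other genes. Of the members, PDIA3 came next to it at r = 0.823 (rank 113), then HERPUD1 (0.754), MANF (0.733), PDIA6 (0.683) and PDIA4 (0.641), and CANX (0.115) and CALR (-0.086) were far down the order. For CANX the most alike were KARS1 (0.982), NUP50, PBK, CD164 and PSMD14, and the member nearest to it was PDIA3 (0.413, rank 692). HERPUD1 stood at -0.468 against CANX. These are descriptions over 10 arrays that share 5 times, and they carry no p-value.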

How the data were processed

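The authors deposited 1 score per probe set and array, and the submitters' processing notes name GCRMA. The GCRMA version, the scale of the scores and any later step are not given in the sources used here. The deposited scores ran from 1.25e-05 to 238.1, and their square roots, up to 15.43, were read as log2 expression. Symbols came from the platform annotation, updated by gene identifier to the RefSeq table of GRCh38.p14 (19059 of 19071 probe sets with 1 symbol matched, 1043 had several symbols and 2169 none).

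The 68 control probe sets were left out, and probe sets with at least 2 of 10 arrays at log2 5 or more were kept. The fit used limma 3.58.1 in R 4.3.3 on the 10 arrays together, with time as its single factor (5 residual and 3.06 prior degrees of freedom, prior SD 0.139), was tested on simulated data, and adjusted p-values by Benjamini-Hochberg over the 4276 probe sets of each comparison. The brightest probe set on average stood for a gene. Of each of the 4 lists up to 4 genes with the largest F statistic among those called were named, and up to 5 genes most like HSPA5 and CANX. FKBP2, DERL1, UBE2G2, VCP and ALG8 were named outside this rule, after their values were seen. The members and lists were chosen with earlier results of these data known. The alternatives were log2 or untransformed scores, equal array medians, renewed quantile normalization, no filter, a filter at log2 7, a floor at log2 5, an intensity trend, a replicate block and each array left out. The number of arrays limits the precision.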

Additional observations from a re-analysis of the deposited data

How the results depend on the processing

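Of the 32 changes from 0 h of the 8 brightest probe sets, 16 were called, and none of these changed sign under the 19 alternatives. With no filter, where 22215 probe sets share the adjustment, the member probe sets called were 1, 3, 5 and 5 at the 4 later times, 1 from 1 h to 3 h, 0 from 3 h to 6 h and 6 by the F test, in place of 4, 7, 10, 10, 3, 2 and 14. Over all probe sets that setting called 261, 759, 591 and 533 lower at the 4 later times, in place of 646, 1036, 1128 and 925. From 1 h to 3 h it called 11 lower and 10 higher, in place of 78 and 83. From 3 h to 6 h it called 35 lower and 79 higher, in place of 89 and 214. Among the brightest probe sets it also ended the calls of CANX at 0.5 h (adjusted p = 0.0671), PDIA4 at 3 h (0.0965), MANF at 3 h and 6 h (0.0843 and 0.0646), PDIA3 at 6 h (0.151) and PDIA6 at 3 h and 6 h (0.183 and 0.156). Log2 of the scores ended those of PDIA3 at 6 h (0.0514) and PDIA6 at 3 h (0.0598). With the filter at log2 7 the member count at 0.5 h was 2, with 417 lower and 58 higher over the whole array. From 3 h to 6 h it was 1 on log2 of the scores (78 lower and 150 higher over the whole array). With equal array medians it was 4 in that interval (201 lower and 325 higher over the whole array, in place of 89 and 214). Leaving out 1 array at a time gave 1 to 4, 3 to 10, 5 to 11 and 5 to 10 at the 4 later times, 1 to 3 from 1 h to 3 h, 0 to 3 from 3 h to 6 h and 8 to 13 by the F test. The lowest counts at the 4 later times came with fewer calls over the whole array too. In these fits a time left with 1 array is assumed to vary like the others.

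Uncalled changes near 0 turned sign, and the cause was not tested. With equal array medians that of CALR at 6 h was 0.02 and those of PDIA4 and PDIA6 at 1 h 0.17 and 0.02, and PDIA4 at 1 h was 0.11 after renewed quantile normalization. Without 0 h replicate 1 PDIA6 at 0.5 h was -0.19, and over all arrays left out in turn it ran from -0.19 to 0.2. Without 0.5 h replicate 1 CALR, PDIA4 and PDIA6 at 0.5 h were -0.03, -0.06 and -0.01, with 0.58 and 0.25 as the highest values of CALR and PDIA4 over all arrays left out. PDIA6 at 1 h was 0.02 without 1 h replicate 2 (lowest -0.55), and CALR at 6 h was 0.06 without 6 h replicate 2 (lowest -0.52).

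The difference of replicate 1 and 2 correlated between times at -0.231 to 0.147, so no strong offset was shared by arrays of 1 replicate number. Whether arrays of 1 number share a culture or run is not said, and these correlations cannot decide it. With the replicate block 3, 7, 10 and 10 member probe sets were called at 0.5 h, 1 h, 3 h and 6 h. Over the whole array 654, 1039, 1143 and 955 probe sets were then called lower. Below log2 5 the signal limits XBP1 and the probe sets that carry the symbol HSP90B1 alone, for which no change was tested.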
